A study of Mus musculus with 24 samples.

Results

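The 10 genes described here encode proteins of the lipid droplet, the store of neutral fat inside a cell: the perilipins Plin1, Plin2, Plin3, Plin4 and Plin5, the fusion proteins Cidea and Cidec, and the lipolysis genes Pnpla2, Hilpda and G0s2. They were taken by gene symbol from the platform annotation of Affymetrix Mouse Gene 1.0 ST arrays. All 10 were measured, each by 1 probe set, among 19937 genes tested. The arrays held total RNA of primary keratinocytes, the main cell type of the epidermis, from C57/BL6 mice. There were 8 groups of 3 arrays. Of the Ppar-beta null groups, 2 were transduced with a retrovirus carrying activated Hras (48 h per the labels) and differed in ligand: null Hras cells with 1 uM GW0742 and null Hras cells with DMSO. The other null groups were mock-transduced: null mock cells with GW0742 and null mock cells with DMSO. The wild-type (WT) groups matched them: WT Hras cells with GW0742, WT Hras cells with DMSO, WT mock cells with GW0742 and WT mock cells with DMSO. Ligand or DMSO was given for 24 h, after 2 days of culture before transduction. GW0742 is a synthetic agonist of PPAR-beta, the nuclear receptor encoded by Ppard, and the labels do not say which part of the gene the null allele lacks. They also do not say whether the arrays of a group came from separate mice or cultures. The p-values therefore measure only how far single arrays spread within groups, pooled over the 8 groups, and this may be technical.

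A lipid droplet is a core of triglyceride and sterol ester inside a single layer of phospholipid. Perilipins coat that layer and limit the access of lipases. Plin2 and Plin3 are found in most tissues, Plin1 and Plin4 mainly in fat cells, and Plin5 mainly in tissues that burn much fat. Pnpla2 (also called Atgl) cuts the first fatty acid from triglyceride, and G0s2 and Hilpda are small proteins that inhibit it. Cidea and Cidec gather at contacts between droplets and move lipid from the smaller to the larger one. Agonist-bound PPAR receptors are known to raise transcription of several of these genes, Plin2 among them, and in the epidermis lipid metabolism also supplies the barrier of the skin.

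RefSeq's promoter table (GRCm38.p6, 250 bases before to 50 after a start site) held 12 windows for 9 of the 10 genes, all but Cidea. These windows were searched on both strands for a direct repeat of the receptor half-site AGGTCA with 1 base between the copies, for the same repeat with the half-site AGGNCA, and for ACGTG, the core bound by hypoxia-inducible factors. Neither direct repeat was found in the 12 windows. Over all 32851 windows of the table, 0.0396% held the first and 0.381% the second. ACGTG was found in 2 of the 12, against 19.6% of all windows. These were the windows of Plin2 and Hilpda, shown here because both genes rose with the ligand in WT cells. The Plin2 window lies on the minus strand at chr4:86670010-86670309, and its capitals mark the palindrome CACGTG, which reads ACGTG on both strands between bases -4 and 2 relative to the start site. The second of 2 Hilpda windows lies on the plus strand at chr6:29272376-29272675, and its capitals mark ACGTG at bases -43 to -39. A match to these letters is a description of the sequence, and binding was not measured.
Plin2 promoter: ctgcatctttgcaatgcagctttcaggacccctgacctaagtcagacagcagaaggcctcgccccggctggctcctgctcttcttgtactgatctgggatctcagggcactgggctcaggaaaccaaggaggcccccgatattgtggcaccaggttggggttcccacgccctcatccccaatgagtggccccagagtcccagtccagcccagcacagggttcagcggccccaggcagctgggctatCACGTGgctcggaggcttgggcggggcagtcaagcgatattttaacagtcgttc
Hilpda promoter: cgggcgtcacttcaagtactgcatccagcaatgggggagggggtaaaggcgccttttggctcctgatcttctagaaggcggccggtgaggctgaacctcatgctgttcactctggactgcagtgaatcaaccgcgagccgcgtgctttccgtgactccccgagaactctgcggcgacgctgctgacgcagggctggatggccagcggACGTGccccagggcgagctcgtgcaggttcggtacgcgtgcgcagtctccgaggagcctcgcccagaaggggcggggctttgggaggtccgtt

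Values are log2 expression after RMA, and array medians lay between 7.46 and 7.53. Of 10 keratinocyte markers, all were measured, and their mean level lay between 13.4 and 13.5 on the mock arrays and between 11.9 and 12.3 on the Hras arrays. Ppard itself averaged 10.62 in null mock DMSO cells and 11.19 in WT mock DMSO cells, a difference of -0.57 ± 0.06 (SE, limma adjusted p = 1.53e-06), and the difference in Hras DMSO cells was -0.28 ± 0.06 (adjusted p = 0.00194). This value checks the genotype only if the probe set lies within the deletion. The known ligand targets Angptl4, Pdk4 and Cpt1a changed by 4.17, 4.14 and 1.30 with GW0742 in WT mock cells and by 0.03, 0.16 and -0.07 in null mock cells. With Hras they changed by 2.34, 5.83 and 1.42 in WT cells and by -0.37, 0.29 and -0.03 in null cells, where Angptl4 (adjusted p = 0.0471) and Pdk4 (adjusted p = 0.0431) passed in limma. The null Hras GW0742 arrays stood apart by their spread, with a median SD over genes of 0.122, against 0.0647 to 0.0798 in the other 7 groups. In that group, the 7975 dimmest genes were shifted as a block, by -0.12 on replicate 1 and 0.10 on replicate 3 relative to the group mean. On the other 21 arrays that shift lay between -0.03 and 0.04. For the 10 droplet genes, calls that changed without 1 of these arrays are given beside the results. Calls of all other genes named here were not refitted with an array left out.

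GW0742 raised 3 of the 10 genes in WT mock cells, namely Plin2, Hilpda and Cidea, where 1.25% of all genes tested rose (adjusted p under 0.05). The same 3 genes rose in WT Hras cells, where 4.46% of all genes rose. In null mock cells 0 of the 10 passed in limma, as did 0 of 19937 genes. At an unadjusted p under 0.05, 1 of the 10 (Cidea) and 1097 genes passed there. In null Hras cells Cidea rose and Pnpla2 fell, against 3.51% of genes higher and 1.51% lower. The median ligand change of the 10 was 0.05 in WT Hras and 0.06 in WT mock cells, against -0.01 and 0.00 for all genes, since most of the 10 did not pass.

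Plin2, the coat protein found in most tissues, read 13.09, 13.03 and 13.11 on the WT mock GW0742 arrays and 11.93, 11.93 and 11.98 on the WT mock DMSO arrays. It read 13.54, 13.60 and 13.51 in WT Hras GW0742 cells and 12.27, 12.21 and 12.22 in WT Hras DMSO cells. In both pairs every ligand array lay above every DMSO array. The change was 1.13 ± 0.05 in WT mock cells, 2.19-fold (SE, limma adjusted p = 2.42e-12), and 1.32 ± 0.05 in WT Hras cells, 2.49-fold (adjusted p = 2.85e-13). These 2 ligand changes differed by 0.18 ± 0.07, which did not pass (adjusted p = 0.248). In bulk RNA of this kind, fewer cells of a type and less RNA per cell cannot be told apart.

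In null cells the Plin2 arrays of the ligand and vehicle groups overlapped. Null Hras cells read 12.45, 12.33 and 12.39 with GW0742 and 12.30, 12.40 and 12.47 with DMSO, and both groups averaged 12.39 (adjusted p = 0.998). Null mock cells read 12.00, 11.86 and 11.89 with GW0742 and 11.96, 11.95 and 11.95 with DMSO, a difference of -0.04 ± 0.05 (adjusted p = 0.976). The ligand change was lower in null than in WT cells by 1.32 on the log2 scale with Hras (-1.32 ± 0.07, adjusted p = 2.53e-10). In mock cells the same difference was -1.17 ± 0.07 (adjusted p = 8.54e-10).

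Hilpda, the hypoxia-inducible inhibitor of Pnpla2, had a larger ligand change in WT Hras cells than any other of the 10 genes in any pair. Its arrays read 10.27, 10.25 and 10.23 in WT Hras GW0742 cells and 7.83, 7.88 and 7.90 in WT Hras DMSO cells, a change of 2.38 ± 0.05, or 5.2-fold (limma adjusted p = 1.05e-17). WT mock cells read 8.07, 8.11 and 8.04 with GW0742 and 7.13, 7.31 and 7.35 with DMSO. There the change was 0.81 ± 0.05, or 1.75-fold (adjusted p = 2.07e-09). The groups did not overlap in either pair. Hilpda was also the 1 gene of the 10 whose ligand change differed between WT Hras and WT mock cells (1.57 ± 0.08, adjusted p = 8.68e-11), in a comparison that called 2.47% of all genes. Its highest group, WT Hras GW0742, averaged 10.25, and the next, WT mock GW0742, averaged 8.08.

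Null Hras cells read 8.12, 8.05 and 8.0 for Hilpda with GW0742 and 7.94, 7.93 and 7.95 with DMSO. These arrays did not overlap, but the difference of 0.12 ± 0.05 did not pass (adjusted p = 0.262). In null mock cells the values were 7.23, 7.24 and 7.17 with GW0742 and 7.22, 7.35 and 7.33 with DMSO, a difference of -0.09 ± 0.05 (adjusted p = 0.911). Null and WT ligand changes differed by -2.26 ± 0.08 in Hras cells (adjusted p = 3.12e-14) and by -0.90 ± 0.08 in mock cells (adjusted p = 1.66e-07).

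**Figure D1:**
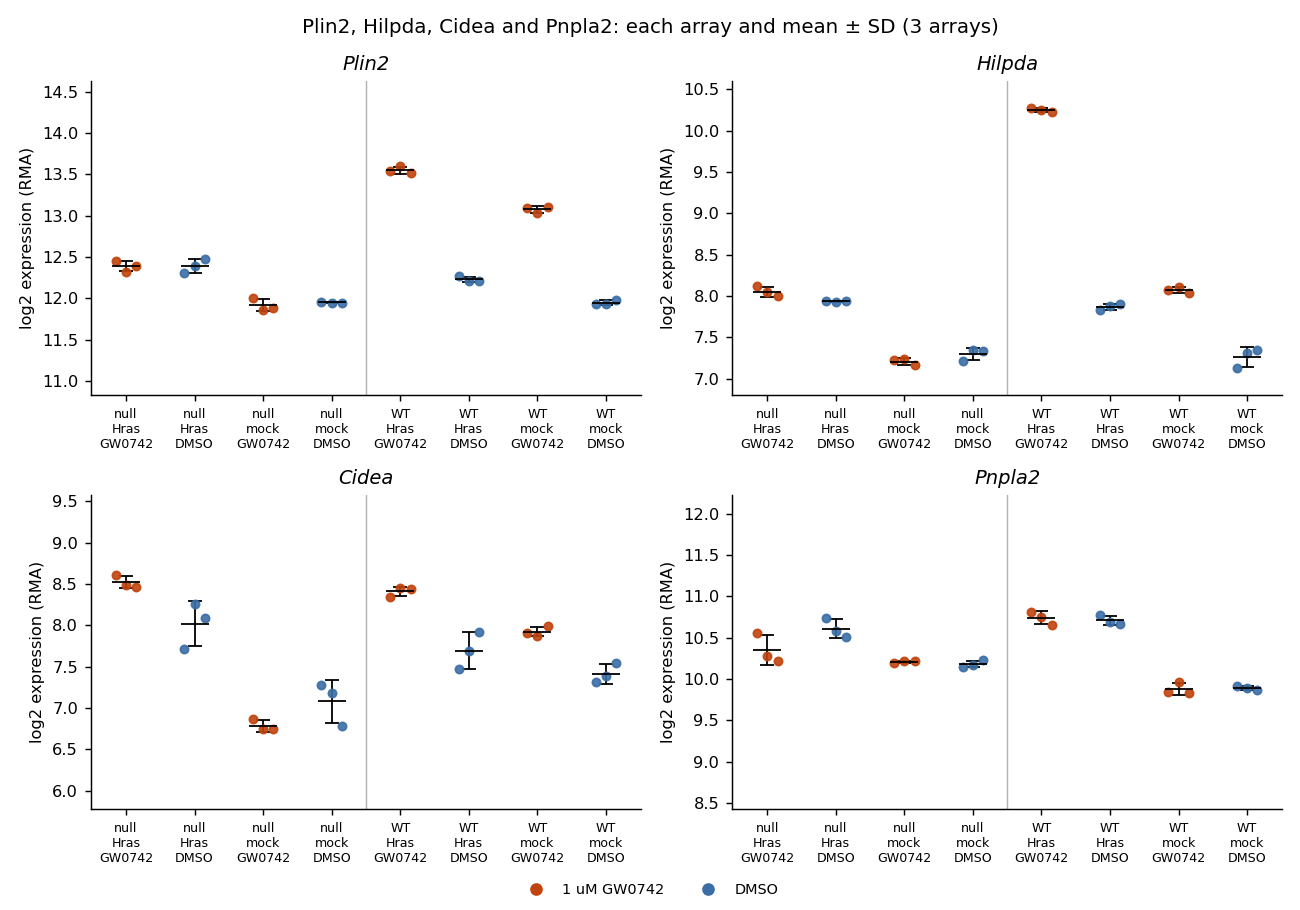
Log2 expression of Plin2, Hilpda, Cidea and Pnpla2 on each of 24 arrays (dots), by group, with the mean and SD of 3 arrays as bars; orange is GW0742, blue is DMSO, and null groups stand left of WT groups. Plin2 reads 13.51 to 13.60 and Hilpda 10.23 to 10.27 in WT Hras GW0742 cells, above all other groups.

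Cidea, which promotes lipid transfer between droplets, responded in WT cells and also in null Hras cells. WT mock cells read 7.91, 7.87 and 7.99 with GW0742 and 7.31, 7.39 and 7.55 with DMSO, without overlap. The change was 0.51 ± 0.13 (limma adjusted p = 0.0267), and it missed the threshold without any 1 of 5 of these 6 arrays, all but WT mock DMSO replicate 3 (adjusted p 0.0617 to 0.123). In WT Hras cells Cidea read 8.35, 8.45 and 8.44 with GW0742 and 7.47, 7.69 and 7.92 with DMSO, a change of 0.72 ± 0.13 (adjusted p = 0.000625).

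Null Hras cells read 8.61, 8.49 and 8.47 for Cidea with GW0742 and 7.72, 8.26 and 8.09 with DMSO. Every ligand array again lay above every DMSO array, with a change of 0.50 ± 0.13 (adjusted p = 0.0211). Without null Hras DMSO replicate 1 it was 0.35 (adjusted p = 0.153), and without null Hras GW0742 replicate 2 it was 0.52 (adjusted p = 0.0729). In the fit of the 6 arrays compared alone the adjusted p was 0.229. The ligand change of Cidea in null Hras cells was not shown to differ from that in WT Hras cells (-0.22 ± 0.18, adjusted p = 0.762).

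In null mock cells Cidea read 6.87, 6.74 and 6.75 with GW0742 and 7.28, 7.18 and 6.79 with DMSO, so that the arrays overlapped. The difference of -0.29 ± 0.13 did not pass (adjusted p = 0.889). Between null and WT mock cells the ligand change of Cidea differed by -0.80 ± 0.18 (adjusted p = 0.0289). That call missed the threshold in 8 of 24 fits that left out 1 array each, with adjusted p up to 0.112. Against the background, 3 of the 10 genes (Plin2, Hilpda, Cidea) had a lower ligand change in null mock than in WT mock cells, where 0.562% of all genes did, and 2 of the 10 (Plin2, Hilpda) in Hras cells, where 1.21% did.

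Pnpla2, the triglyceride lipase, read 10.56, 10.28 and 10.22 in null Hras GW0742 cells and 10.74, 10.58 and 10.51 in null Hras DMSO cells. The arrays overlapped, and Pnpla2 fell by 0.25 on the log2 scale (-0.25 ± 0.07, limma adjusted p = 0.0466). This call passed in 10 of 30 alternative fits, and with the 6 arrays alone its adjusted p was 0.554. The adjusted p was 0.229 without null Hras GW0742 replicate 2 and 0.212 without replicate 3. In WT cells the ligand change of Pnpla2 was 0.03 ± 0.07 with Hras and -0.01 ± 0.07 in mock cells, and in null mock cells it was 0.03 ± 0.07. The null minus WT difference of ligand changes in Hras cells was -0.29 ± 0.10 (adjusted p = 0.241). Without null Hras GW0742 replicate 1 it was -0.39 and passed (adjusted p = 0.0134).

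**Figure D2:**
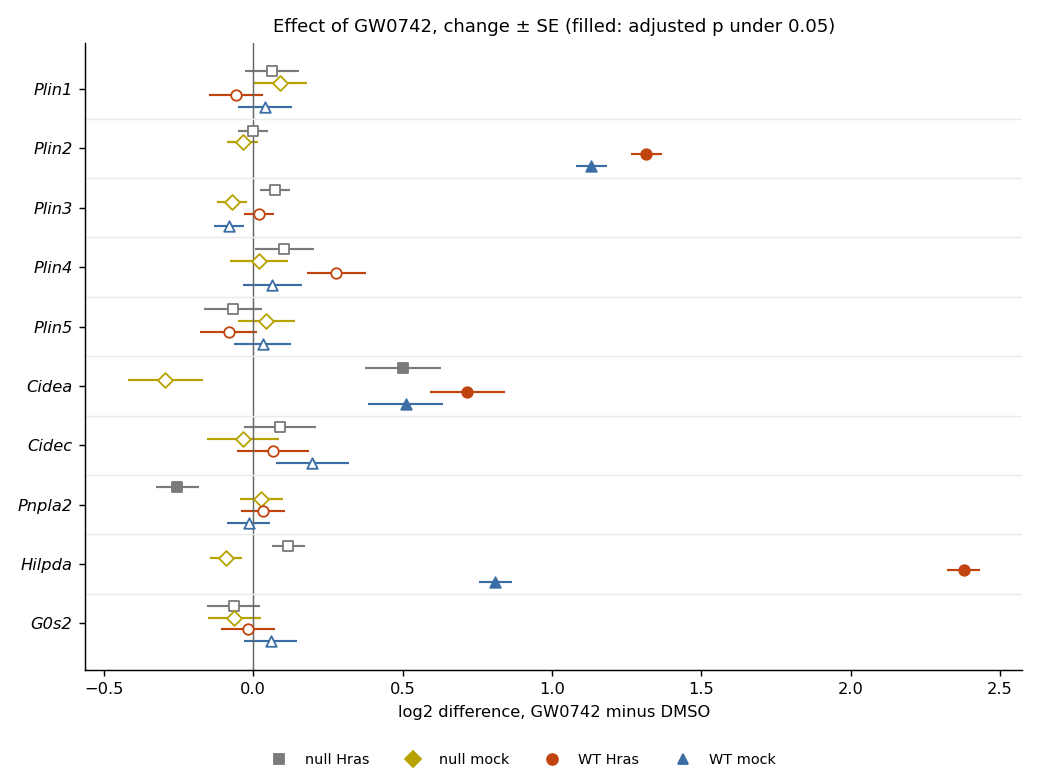
GW0742 minus DMSO difference in log2 expression for each of the 10 genes, with standard errors, in null Hras, null mock, WT Hras and WT mock cells; filled symbols have an adjusted p under 0.05. Plin2 and Hilpda stand at 1.13 and 0.81 in WT mock and at 1.32 and 2.38 in WT Hras cells, and their null values lie between -0.09 and 0.12.

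Plin1, Plin4, Plin5, Cidec and G0s2 passed in none of the 14 comparisons. Their 4 ligand changes each lay between -0.08 and 0.28, with standard errors of 0.09 to 0.12, and their group means spanned 0.139 to 0.278. Plin1, the main coat of fat cell droplets, read 7.21 to 7.69 over the 24 arrays. Plin5 read 6.89 to 7.41, Cidec 6.79 to 7.48, and G0s2, the inhibitor of Pnpla2, 6.96 to 7.41. In all 5 genes the widest group SD was that of null Hras GW0742, and there replicate 1 was lowest and replicate 3 highest, the same arrays on which dim genes were shifted. The part of that shift in their values was not tested. Plin4, Plin5 and Cidec were among the dimmest genes, while Plin1 and G0s2 lay just above that set. Genes outside the set had a median deviation of 0.04 on replicate 1 and -0.04 on replicate 3. Without null Hras GW0742 replicate 1, the ligand change of Cidec in null Hras cells was 0.29 (adjusted p = 0.0453), and the null minus WT difference of Plin1 in GW0742-treated Hras cells was 0.23 (adjusted p = 0.0419).

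Plin4, the coat protein first found in fat cells, was the nearest of the 5 to a call. It read 7.23, 7.24 and 7.33 in WT Hras GW0742 cells and 7.03, 6.98 and 6.96 in WT Hras DMSO cells, with no overlap. Its change was 0.28 ± 0.10 (limma adjusted p = 0.114). With the null Hras GW0742 group left out of the model, the same change had an adjusted p of 0.0174, and with the 6 arrays alone 0.0324. The adjusted p was 0.0335 without null Hras GW0742 replicate 1 and 0.0332 without replicate 3. In WT mock cells Plin4 changed by 0.06 ± 0.10 (adjusted p = 0.870). Plin4 and Plin5 are adjacent on chromosome 17, with 0 coding genes between them, and Plin3 lies 7 coding genes from Plin5. Plin5 changed by -0.08 ± 0.10 in WT Hras cells with GW0742, and Plin3 by 0.02 ± 0.05.

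**Figure D3:**
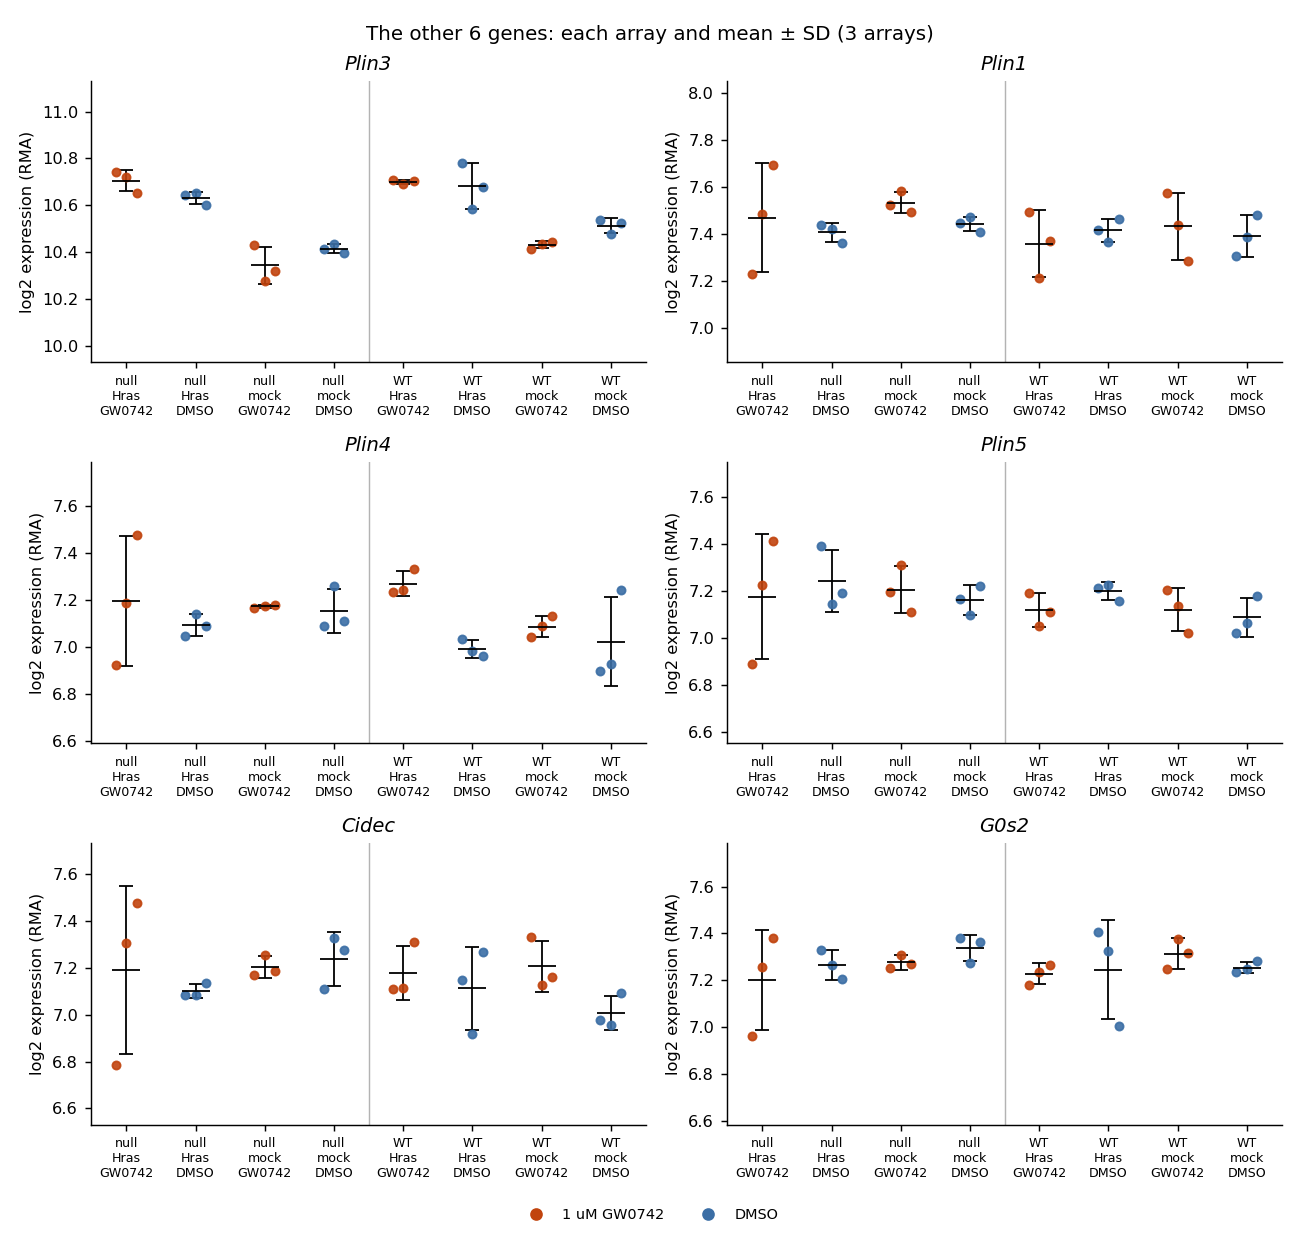
Log2 expression of Plin3, Plin1, Plin4, Plin5, Cidec and G0s2 on each array (dots), by group, with the mean and SD of 3 arrays as bars; orange is GW0742 and blue is DMSO. Plin3 groups with Hras average 10.63 to 10.70, against 10.34 to 10.51 in mock groups, and the other 5 genes spread most in null Hras GW0742 cells.

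With DMSO alone, Hras raised 5 of the 10 genes in null cells (Cidea, Hilpda, Plin2, Pnpla2 and Plin3), where 20.2% of all genes rose. It raised 4 in WT cells (Pnpla2, Hilpda, Plin2 and Plin3), where 18.4% did. None of the 10 fell in these comparisons, where 20.5% and 19% of all genes fell. Markers moved alongside: 9 of 10 keratinocyte markers fell with Hras in null cells and 10 of 10 in WT cells. Krt10, a keratin of differentiating keratinocytes, fell by 4.85 on the log2 scale in both genotypes. Of 6 fibroblast markers, 3 fell and 1 rose in null cells and 6 fell in WT cells (list medians -0.18 and -0.89). The sebocyte list had 3 of 7 higher in null and 2 of 7 in WT cells, among them Krt79 (0.87 ± 0.14 in null and 1.86 ± 0.14 in WT cells). Of 7 macrophage and leukocyte markers, 1 rose and 2 fell in each genotype. The part of these shifts in the droplet genes was not tested.

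Pnpla2 read 10.74, 10.58 and 10.51 in null Hras DMSO cells and 10.15, 10.18 and 10.23 in null mock DMSO cells, a change of 0.43 ± 0.07 (limma adjusted p = 4.73e-05). In WT cells it read 10.77, 10.69 and 10.66 with Hras and 9.92, 9.90 and 9.87 in mock cells, a change of 0.81 ± 0.07 or 1.76-fold (adjusted p = 5.93e-09). Neither pair overlapped, and the Hras change was smaller in null cells (-0.39 ± 0.10, adjusted p = 0.0109). Hilpda changed nearly equally, by 0.64 ± 0.05 in null and 0.61 ± 0.05 in WT cells (adjusted p = 2.47e-09 and 5.95e-09), and these changes differed by 0.03 ± 0.08 (adjusted p = 0.862). For Plin2 the Hras change was 0.44 ± 0.05 in null and 0.29 ± 0.05 in WT cells (adjusted p = 2.82e-07 and 9.31e-05), with a difference of 0.15 ± 0.07 (adjusted p = 0.171).

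Cidea read 7.72, 8.26 and 8.09 in null Hras DMSO cells and 7.28, 7.18 and 6.79 in null mock DMSO cells, a rise of 0.94 ± 0.13 (limma adjusted p = 2.12e-06). In WT cells its Hras change was 0.28 ± 0.13 (adjusted p = 0.0917), and without WT Hras DMSO replicate 1 it was 0.39 and passed (adjusted p = 0.0269). The null minus WT difference of Hras changes was 0.66 ± 0.18 (adjusted p = 0.0122), and 0.0574 in a fit of those 12 arrays alone. The Hras change of 5 of 6 fibroblast markers also differed by genotype, all higher in null than in WT cells, and their part in the Cidea and Pnpla2 values was not tested. In both Hras DMSO groups replicate 1 had the lowest Cidea value. Against 16.8% of all genes, 2 of the 10 (Cidea and Pnpla2) had Hras changes that differed by genotype, which is near the background.

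Plin3, a coat protein that moves between cytosol and new droplets, read 10.64, 10.65 and 10.60 in null Hras DMSO cells and 10.41, 10.43 and 10.40 in null mock DMSO cells. Its Hras change was 0.22 ± 0.05 in null cells (limma adjusted p = 0.00112) and 0.17 ± 0.05 in WT cells (adjusted p = 0.00971). The WT arrays read 10.78, 10.58 and 10.68 with Hras and 10.54, 10.48 and 10.53 in mock cells, without overlap. Without WT Hras DMSO replicate 1 the WT change was 0.12 (adjusted p = 0.0851), and with only the 6 arrays compared the adjusted p was 0.0645. Plin3 was thus called for Hras but for the ligand in none of the 4 ligand comparisons, where its changes lay between -0.08 and 0.07.

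Between genotypes with DMSO, 1 of the 10 genes passed in Hras cells, where 19.4% of all genes passed in either direction. In mock cells 1 of the 10 passed, against 10.4%. With 10 genes, these counts do not set them apart from all genes. In Hras DMSO cells Plin2 was higher in null than in WT cells by 0.16 ± 0.05 (limma adjusted p = 0.0302), with arrays of 12.30 to 12.47 in null and 12.21 to 12.27 in WT cells. This is 1 of 10 genes, against 10.1% of all genes higher, and the call was lost without any 1 of 4 of the 6 arrays (adjusted p 0.0834 to 0.168). In mock DMSO cells Pnpla2 was higher in null cells by 0.29 ± 0.07 (adjusted p = 0.0113), where 4.89% of all genes were, and without null mock DMSO replicate 3 its adjusted p was 0.0543. Fibroblast markers differed there too: 5 of 6 were lower in null mock DMSO cells, against 5.53% of all genes. Their mean levels were 8.04 to 8.09 in null and 8.62 to 8.69 in WT mock DMSO arrays. Of 7 macrophage and leukocyte markers 2 were higher and 0 lower, and of 8 white adipocyte markers 1 was higher and 2 lower. In Hras DMSO cells 4 of 10 keratinocyte, 3 of 6 fibroblast and 4 of 8 white adipocyte markers were higher in null cells. None of these 3 lists had a lower marker, and 1 of 7 sebocyte markers was lower. The part of these markers in the Pnpla2 and Plin2 values was not tested. Cidea had a null minus WT difference of 0.33 ± 0.13 in Hras DMSO cells (adjusted p = 0.0762) and of -0.33 ± 0.13 in mock DMSO cells (adjusted p = 0.104).

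With GW0742 in both genotypes, 3 of the 10 genes were lower in null Hras than in WT Hras cells, against 11.2% of all genes, and 0 were higher, against 9.91%. Hilpda differed by -2.19 ± 0.05 (limma adjusted p = 2.67e-17), Plin2 by -1.16 ± 0.05 (adjusted p = 7.76e-13) and Pnpla2 by -0.39 ± 0.07 (adjusted p = 0.000465). In the fit of those 6 arrays the adjusted p of Pnpla2 was 0.0552. In mock cells with GW0742, Plin2 (-1.16 ± 0.05), Cidea (-1.14 ± 0.13) and Hilpda (-0.87 ± 0.05) were lower in null than in WT cells, where 10.9% of all genes were, and Pnpla2 was higher (0.33 ± 0.07), against 11.1%. Cidea in Hras GW0742 cells differed by 0.11 ± 0.13 (adjusted p = 0.583), with 8.47 to 8.61 in null and 8.35 to 8.45 in WT cells.

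**Figure D4:**
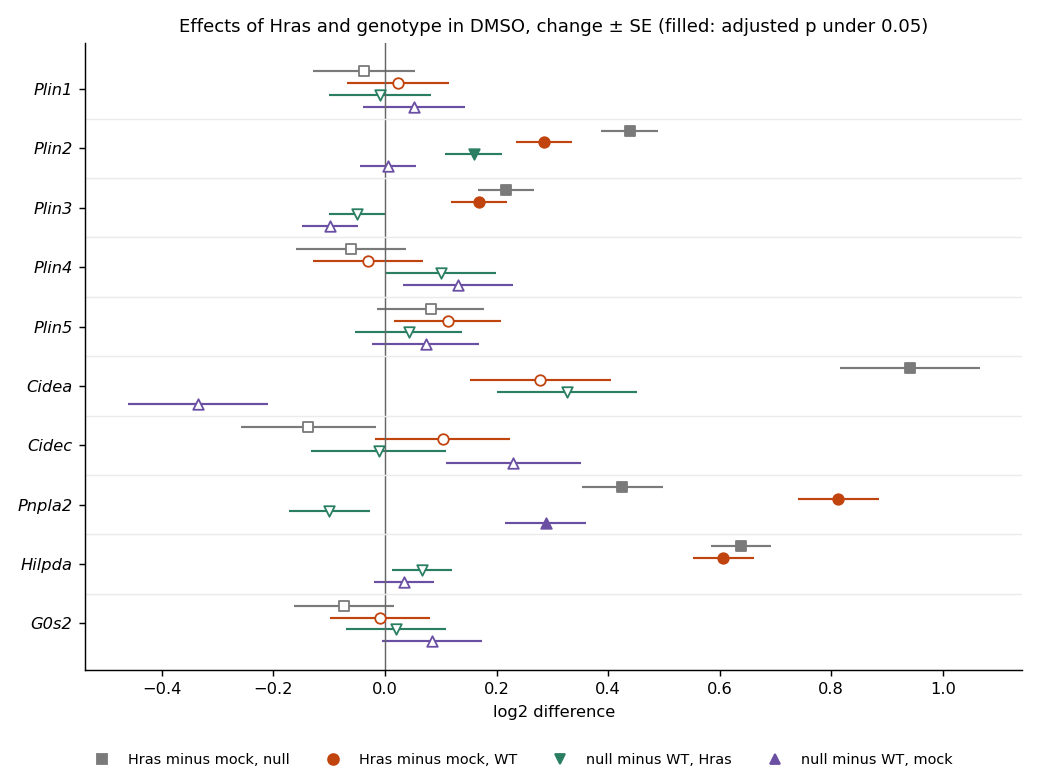
Differences in log2 expression with DMSO for each of the 10 genes, with standard errors: Hras minus mock in null and WT cells, and null minus WT in Hras and mock cells; filled symbols have an adjusted p under 0.05. Cidea has the largest Hras change in null cells (0.94) and Pnpla2 the largest in WT cells (0.81).

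Ordered by group mean, Plin2 was highest in WT Hras GW0742 (13.55) and WT mock GW0742 cells (13.08), followed by null Hras GW0742 and null Hras DMSO (both 12.39) and WT Hras DMSO (12.23). The 3 remaining mock groups averaged 11.92 to 11.95 and overlapped. For Hilpda, WT mock GW0742 (8.08) and null Hras GW0742 (8.06) overlapped below WT Hras GW0742. Cidea had another order, with null Hras GW0742 (8.52) above WT Hras GW0742 (8.41), and null mock GW0742 (6.79) lowest. Pnpla2 was ordered first by virus: the 4 Hras groups averaged 10.35 to 10.74, the null mock groups 10.18 to 10.21 and the WT mock groups 9.88 to 9.89. By group mean, null groups thus lay above WT groups in mock cells but below them with Hras. There null cells averaged 10.61 with DMSO and 10.35 with GW0742, and WT cells 10.71 and 10.74. With Hras and DMSO the null and WT arrays overlapped, and the difference of -0.10 ± 0.07 did not pass (limma adjusted p = 0.410).

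The other genes of droplet metabolism were taken from 4 lists. Of 16 triglyceride synthesis genes, 6 rose and 0 fell with GW0742 in WT Hras cells, against 4.46% of all genes higher and 1.65% lower. The list's median change was 0.05, against -0.01 for all genes. Dgat2, which adds the last fatty acid, averaged 11.17 in WT Hras GW0742 and 10.26 in WT Hras DMSO cells, a change of 0.90 ± 0.12 (limma adjusted p = 3.52e-05). Gpat3, which adds the first, changed by 0.79 ± 0.10, and the phosphatidate phosphatases Lpin2 and Lpin3 by 0.67 ± 0.11 and 0.56 ± 0.07. In WT mock cells 0 of the 16 rose and 1 fell, Agpat4 (-0.55 ± 0.11, adjusted p = 0.00514), against 1.25% of all genes higher and 1.61% lower. The ligand change was larger in WT Hras than in WT mock cells for 4 of the 16, Dgat2 (0.92 ± 0.17), Gpat3 (0.69 ± 0.14), Mogat2 (0.59 ± 0.15) and Lpin3 (0.58 ± 0.10), against 2.05% of all genes.

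In null Hras cells 2 of the 16 rose with GW0742, Lpin2 (0.74 ± 0.11) and Lpin3 (0.44 ± 0.07), and 2 fell, Lpin1 (-0.50 ± 0.10) and Agpat2 (-0.21 ± 0.06). Of all genes, 3.51% rose and 1.51% fell there. The ligand change was lower in null than in WT Hras cells for Gpat3 (-0.81 ± 0.14, limma adjusted p = 0.00219) and Agpat2 (-0.44 ± 0.09, adjusted p = 0.00737), against 1.21% of all genes. No gene of the 4 lists passed in null mock cells in limma, where 1 gene of droplet formation and 1 lipase gene had an unadjusted p under 0.05. With DMSO, Hras raised 6 and lowered 5 of the 16 in null cells and raised 9 and lowered 4 in WT cells. Of all genes, Hras raised 20.2% and lowered 20.5% in null cells and raised 18.4% and lowered 19% in WT cells. Changes with Hras reached 2.20 ± 0.10 in null and 0.98 ± 0.10 in WT cells for Gpat3, and -2.12 ± 0.11 in null and -2.31 ± 0.11 in WT cells for Agpat4. Agpat2 rose by 1.17 ± 0.06 in null and 1.31 ± 0.06 in WT cells, and Dgat2 fell by 0.31 in null and by 1.29 in WT cells (-0.31 ± 0.12 and -1.29 ± 0.12).

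Among 12 other lipases and their cofactors, 4 rose and 0 fell with GW0742 in WT Hras cells, with a list median of 0.01, against 4.46% of all genes higher and 1.65% lower. They were Pnpla1, a keratinocyte enzyme of acylceramide synthesis (1.26 ± 0.16), the monoglyceride lipases Abhd6 (0.78 ± 0.07) and Mgll (0.26 ± 0.06), and Lipe, hormone-sensitive lipase (0.54 ± 0.08). Abhd6 alone rose in WT mock cells (0.47 ± 0.07, limma adjusted p = 0.00022), against 1.25% of all genes. Its ligand change was lower in null cells by 0.60 with Hras (-0.60 ± 0.10, adjusted p = 0.00112) and by 0.56 in mock cells (-0.56 ± 0.10, adjusted p = 0.0034), against 1.21% and 0.562% of all genes. In null Hras cells Pnpla1 (0.83 ± 0.16) and Mgll (0.34 ± 0.06) rose, against 3.51% of all genes. Hras with DMSO raised 2 and lowered 5 of the 12 in null cells and raised 1 and lowered 6 in WT cells. Of all genes it raised 20.2% and lowered 20.5% in null cells, and 18.4% and 19% in WT cells. Mgll fell by 1.10 in null cells (-1.10 ± 0.06) and by 1.32 in WT cells (-1.32 ± 0.06). Lipe rose in both (0.97 ± 0.08 in null and 0.30 ± 0.08 in WT cells). Pnpla1 averaged 11.276 in WT mock DMSO, 9.997 in WT Hras DMSO and 11.255 in WT Hras GW0742 cells. Its ligand rise in WT Hras cells thus reached about the WT mock DMSO level. The matching null groups averaged 10.793, 10.932 and 11.757.

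Of 12 genes of droplet formation and protein sorting, such as Bscl2 (seipin) and Fitm2, 0 passed for the ligand in limma in any of the 4 ligand comparisons, with 1 to 3 at an unadjusted p under 0.05 in each. Hras with DMSO raised 1 and lowered 2 of them in null cells and raised 2 and lowered 4 in WT cells, beside shares of 18.4% to 20.5% of all genes in each direction. In the sterol ester list 2 of 4 genes were measured, Nceh1 and Lipa. Nceh1, a cholesteryl ester hydrolase, rose with GW0742 in WT Hras cells (0.29 ± 0.07) and fell in null Hras cells (-0.37 ± 0.07), a difference of -0.65 ± 0.10 (limma adjusted p = 0.000411).

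Fat cell markers were examined because several of these genes are high in adipocytes. Of 8 measured white adipocyte markers, Adipoq, Lep, Retn and Car3 passed in none of the 14 comparisons. Fabp4 passed in 10, Lipe in 7, Lpl in 6 and Pparg in 5. These 4 are also PPAR targets or genes of the pathway, and Lipe is among the lipases above, so they do not mark fat cells alone. With Hras and DMSO these 4 rose and 0 of the 8 fell in both genotypes: Fabp4 changed by 1.48 in null and 1.11 in WT cells, Lpl by 1.59 and 0.59, Lipe by 0.97 and 0.30, and Pparg by 0.23 and 0.33. Of all genes, 20.2% rose and 20.5% fell with Hras in null cells, and 18.4% rose and 19% fell in WT cells. Adipoq, which encodes adiponectin, averaged 5.02 to 5.20 over the 8 groups. Fabp4, a fatty acid carrier, rose with GW0742 in null Hras (0.97 ± 0.11), WT Hras (1.60 ± 0.11) and WT mock cells (0.56 ± 0.11), and averaged 9.35, 9.66 and 7.51 there with the ligand. The mean over the 8 markers lay between 7.52 and 7.76 on the null Hras GW0742 arrays, between 7.50 and 7.58 in WT Hras GW0742 cells and between 7.09 and 7.17 in WT mock GW0742 cells. With DMSO it lay between 7.41 and 7.51 in null Hras, 7.25 and 7.31 in WT Hras and 6.89 and 7.02 in WT mock cells. In null mock cells it lay between 6.90 and 6.97 with GW0742 and between 6.91 and 7.02 with DMSO, and the part of these markers in the droplet genes' changes was not tested. Of 6 brown adipocyte markers, which bear on Cidea, Cox7a1, Cox8b and Elovl3 passed in no comparison, Ucp1 in 3 and Dio2 and Ppargc1a in 5 each. With Hras and DMSO, 1 of the 6 rose and 2 fell in null cells, against 20.2% and 20.5% of all genes. The changes of the 6 ran from -1.15 to 0.43 there, and Cidea rose by 0.94. In WT cells 0 of the 6 rose and 1 fell, against 18.4% and 19%. The part of these markers in the Cidea values was not tested. With the ligand, Dio2 fell in WT mock cells (-0.27 ± 0.07, limma adjusted p = 0.0395) and Ppargc1a fell in WT Hras cells (-0.42 ± 0.09, adjusted p = 0.00471), where Cidea rose. No brown adipocyte marker passed as higher with GW0742 in the 4 ligand comparisons, and Dio2 came nearest, in null Hras cells (0.24 ± 0.07, adjusted p = 0.0559).

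Over the 24 arrays, Plin2 and Hilpda had a Pearson r of 0.905, Plin2 and Cidea 0.696, Hilpda and Cidea 0.696, and Plin2 and Pnpla2 0.290. These values describe the arrays, which share groups and one normalization. The genes most like Plin2 were Aldh9a1 (r = 0.971), Tmem125 (0.969) and Spin4 (0.930). For Hilpda they were Erc2 (0.963), Spin4 (0.961) and Cobll1 (0.955). Spin4 changed with GW0742 by 1.63 in WT Hras and 0.63 in WT mock cells, and Aldh9a1 by 0.92 and 1.01. Pnpla2 was most like Mgat4b (0.988), Agfg2 (0.984) and Tnk1 (0.983).

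Cidea was most like Lce1g (r = 0.974), Lce3f (0.970) and Tmprss11f (0.962). The Lce genes encode proteins of the cornified envelope of the outer epidermis and have near-identical copies, so their probe sets may read several genes. Lce3f changed with Hras by 3.11 in null and 0.74 in WT cells with DMSO, and Cidea by 0.94 and 0.28. With GW0742, Lce3f changed by 0.90 in null Hras, -0.09 in null mock, 1.52 in WT Hras and 0.78 in WT mock cells, beside 0.50, -0.29, 0.72 and 0.51 for Cidea.

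**Figure D5:**
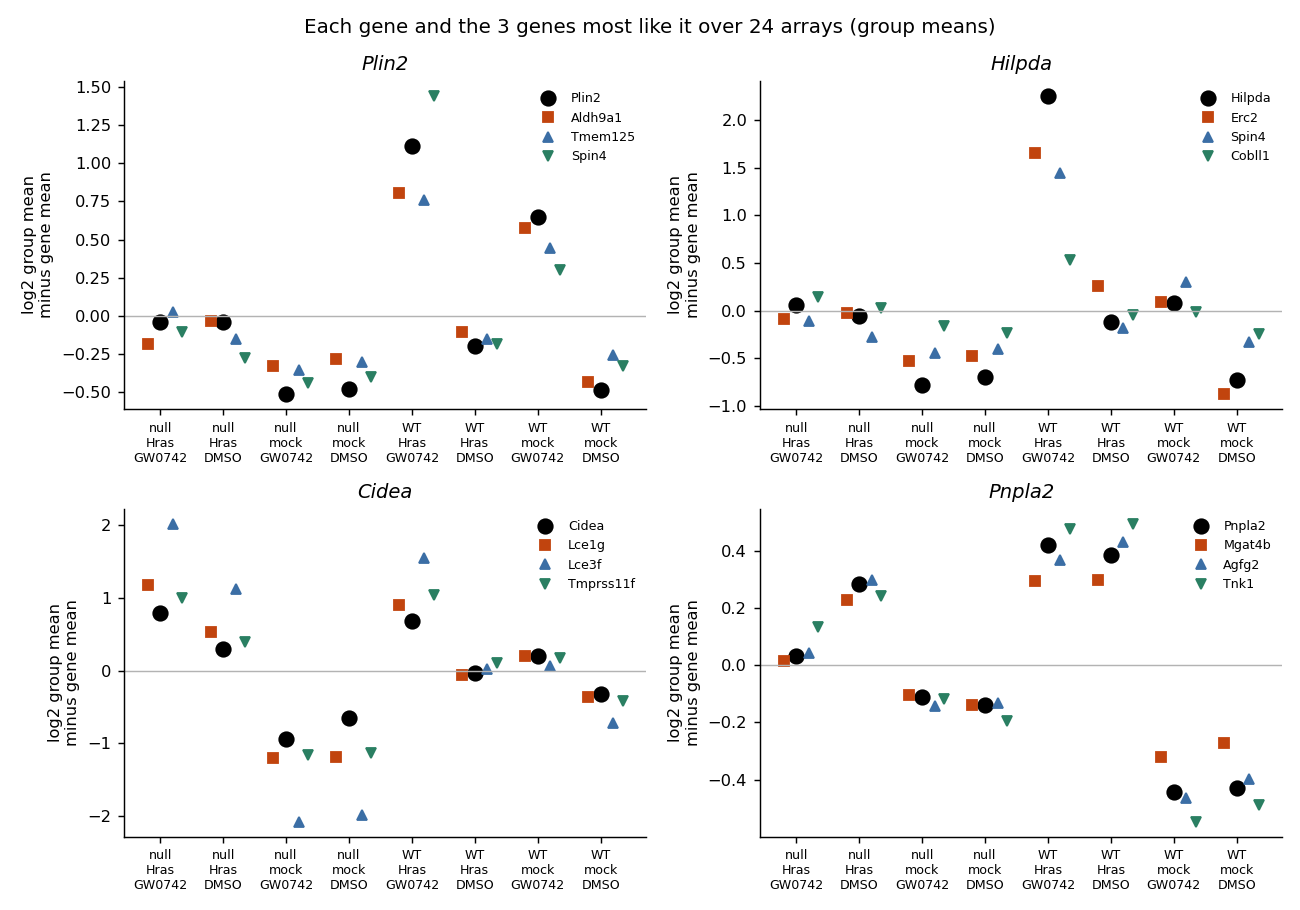
Group means of Plin2, Hilpda, Cidea and Pnpla2 (black) and of the 3 genes with the highest Pearson r to each over 24 arrays, as log2 difference from each gene's own mean, by group. Plin2 and Hilpda peak in WT Hras GW0742 cells with their neighbours, and Cidea has its highest mean in null Hras GW0742 cells (8.52).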

How the data were processed

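Log2 values of 24 arrays were used as the authors deposited them in a single table, and RMA is the method named per the submitters' processing notes. Its software and version stay not given in the sources used here. RMA brings all arrays to nearly one distribution and hides any change that most genes share. No further normalization was applied. The deposited log2 values ran from 2.27 to 14.8 with 0 missing. Of 34760 probe sets, the 21640 annotated to a single symbol were used, each gene by its probe set with the highest mean over the 24 arrays, which gave 19937 genes with no filter on dim ones. The precision of each value is limited by the 3 arrays per group.

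In R 4.3.3, limma 3.58.1 (lmFit, eBayes) estimated 1 mean for each of the 8 groups, and 14 comparisons were taken from these. P-values are two-sided limma values with Benjamini-Hochberg adjustment over all genes, with a threshold of 0.05, and ± in a change is the standard error. The fit was checked on simulated data. The 10 genes, the gene lists, the tests and the alternatives were chosen with earlier results of these data known. All 10 genes were named in every comparison where their values bore on it, and the lists' passing genes up to 4 a list by absolute change. Genes alike were ranked by Pearson r over 24 arrays, skipping predicted ones, with the first 3 named. Markers other than these were named after their values were seen.

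Whether replicate numbers pair the arrays was checked by correlating same-numbered deviations from group means over all genes. The 30 correlations ran from -0.18 to 0.24, and all 3 were over 0.1 only between genotypes in mock DMSO cells, at 0.118 to 0.144. Values this small do not establish a pairing. The tests reported above hold no replicate block, and a fit with a block is described below. What a replicate number marks is not stated in the labels.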

Additional observations from a re-analysis of the deposited data

Results flagged for a closer look

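The following differences between effects passed limma's test of the difference itself, at an adjusted p under 0.05 over all genes. In mock cells the null minus WT difference of ligand changes was -1.17 for Plin2, -0.90 for Hilpda and -0.80 for Cidea on the log2 scale. In Hras cells it was -2.26 for Hilpda and -1.32 for Plin2. Within WT cells, Hilpda's ligand change was larger with Hras than in mock cells by 1.57. The Hras change with DMSO was larger in null than in WT cells for Cidea, by 0.66, and smaller for Pnpla2, with a difference of -0.39. Comparisons that share groups are not independent: the ligand differences in mock and in Hras cells use different arrays, while the WT Hras and WT mock ligand changes enter several of them.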

How the results depend on the processing

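No change of the 10 genes reversed where it had been called. With each array left out in turn, 3310 values stayed on their side of the threshold, 40 lost a call and 10 gained one. The number of genes called for the null minus WT difference with DMSO was 1 in Hras cells, 0 with only the arrays compared, 2 without the 40% dimmest genes and 0 to 2 with 1 array left out; in mock cells it was 1, and 0 to 2. For the ligand in null Hras cells it was 2, then 0 with only the arrays compared and 0 to 3 with 1 array left out. The Hras by genotype count was 2, and 1 with only the arrays compared. Leaving out 1 array gave 2 to 3 for the ligand in WT mock cells, 3 to 4 in WT Hras cells, 2 to 3 for the ligand by genotype difference in both Hras and mock cells, and 3 to 4 between genotypes in Hras GW0742 cells. The replicate block changed no call (140 of 140), and the counts with it stayed at 1 for the genotype difference in mock DMSO cells and 3 for the ligand in WT mock cells. Centring each array, keeping every probe set, and trend with robust moderation also kept 140 of 140. Leaving all null Hras GW0742 arrays out of the model, an alternative chosen after seeing the data, kept 109 values and gained 1 call, Plin4 with the ligand in WT Hras cells. Without dim genes, Plin4, Plin5 and Cidec dropped out and Cidea passed between genotypes in Hras DMSO cells (0.33, limma adjusted p = 0.0442). Averaging several probe sets gave no value, since each gene had 1. The causes of these changes were not tested. Signal over background is not given by RMA values, so absence of expression cannot be stated for any gene.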
